A study of Homo sapiens with 3 samples.

Results

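The genes of endoplasmic reticulum (ER) protein folding and of the unfolded protein response were followed in LNCaP cells after siRNA against the SLC45A3-ELK4 chimeric transcript. The set was a list of 37 genes, each represented by the mean of the probe sets that name it alone. Of these, 36 were measured among 18417 genes in all, and 35 were bright enough to enter the test over 12892 genes. PDIA3 had only probe sets that also name its pseudogene, and ERO1B lay below the filter on dim genes (a mean over the 3 arrays of log2 5.12, the 30th percentile). LNCaP is an androgen-responsive line from a prostate carcinoma metastasis, so all arrays come from 1 cell line, grown in serum. The groups were a negative control siRNA, which the series' design names as siGl2 (1 array), and siRNAs titled siSE1 and siSE2 (1 array each), all harvested 72 hours after transfection. The transfection field of the array titled siSE2 names siSE1. If that field is right, the siSE1 and siSE2 values below are repeats of 1 siRNA. Nothing in the labels ties the arrays to separate cultures, so the spread between them may be technical.

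Proteins that enter the ER are folded by HSP70 and HSP90 type chaperones, by lectin chaperones that bind their sugar chains and by enzymes that form disulfide bonds. Proteins that fail to fold are drawn back into the cytosol and degraded. When unfolded proteins build up, the sensors IRE1 (gene ERN1), ATF6 and PERK (gene EIF2AK3) are activated. IRE1 splices XBP1 mRNA, ATF6 is cut to release a transcription factor, and PERK slows translation while favouring ATF4 and its target DDIT3 (CHOP). Secretory epithelium such as the prostate depends on this machinery, and in prostate cancer cells the IRE1 and XBP1 branch is known to be linked to androgen signalling.

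None of the 35 tested genes passed the test over all genes, which does not show that they did not change, and the members that stood farthest from the control lay in opposite directions. HSPA5, which encodes the major ER chaperone BiP, was 1.55-fold lower on the mean of the siRNA arrays. DNAJB9, which encodes the BiP co-chaperone ERdj4, was 1.63-fold higher, most of it on the siSE2 array. The other HSP90 and HSP70 type chaperones, the stress sensors and DDIT3 lay near their control values. Limma, fitted over all genes on both siRNA arrays against the control, called 0 members higher (0.248% of all genes tested) and 0 lower (0.714%) at an adjusted p under 0.05. At an unadjusted p under 0.05, 2 members were higher (DNAJB9 and EDEM1), 5.71% of the members against 6.46% of all genes. Another 4 were lower (HSPA5, DNAJC10, CHAC1 and EDEM2), 11.4% against 11.3%. These shares are close to the background. The unadjusted 95% intervals of these 6 members exclude 0. The fit's 1 residual degree of freedom comes from how far the siRNA arrays lie apart. Limma added 8.46 prior degrees of freedom drawn from all genes tested, so each SE below rests mostly on their shared spread. DERL2, whose siRNA arrays lay 0.003 apart, thus had an SE of 0.14. The smallest difference the fit called in any gene was 0.74 on the log2 scale. The half-widths of the members' unadjusted 95% intervals ran from 0.32 to 0.51, so changes of the size seen here were mostly not detectable.

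Promoter sequence describes what many of these genes are known to share. Genes of this response are known largely as targets of ATF6 and XBP1, so the shares below restate in part how the list was chosen and are no independent finding. The ER stress response element (ERSE), bound by ATF6 and XBP1 together with NF-Y, reads CCAAT, then 9 bases of any kind, then CCACG. The related ERSE-II reads ATTGG, then 1 base of any kind, then CCACG. Windows from 250 bases before to 50 bases after each RefSeq gene start (GRCh38.p14) were searched on both strands. Of 34 members with a window, 8 held ERSE (23.5%), against 25 of 27305 genes (0.0916%), and 3 held ERSE-II (8.82%), against 19 genes (0.0696%). ERSE and ERSE-II did not overlap in any member. The matches are shown in the direction of the motif, with its fixed letters in capitals, to show how the members' copies differ in their spacers.
HSPA5: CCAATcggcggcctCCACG
HSP90B1, distal: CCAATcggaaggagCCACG
HSP90B1, proximal: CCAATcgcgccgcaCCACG
CRELD2: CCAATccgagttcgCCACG
CALR: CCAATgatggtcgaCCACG
CANX: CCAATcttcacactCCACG
PDIA6: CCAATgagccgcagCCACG
ERO1B: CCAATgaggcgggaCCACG
XBP1: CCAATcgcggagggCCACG
HYOU1, both matches: ATTGGaCCACG
HERPUD1: ATTGGgCCACG
SDF2L1: ATTGGtCCACG

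The match lay at -66 to -48 from the gene start in HSPA5 and at -52 to -34 in XBP1. HSP90B1 held a distal match at -194 to -176 and a proximal one at -89 to -71. In PDIA6 the match lay before its second listed start. The XBP1 and ATF6 site UPRE, TGACGTGG, occurred in 2 members, DNAJC10 and HYOU1 (5.88%, against 0.927% of all genes). In HYOU1 it overlapped 1 of the ERSE-II matches. The ATF4 composite element, TGATGNAA, occurred in CHAC1 and HERPUD1 (5.88%, against 4.46% of all genes). Over the 10244 genes tested that have a window, the shares were 0.146% for ERSE and for ERSE-II, 1.24% for UPRE and 2.60% for the ATF4 element. A match describes letters in the window and does not show that a factor was bound. Only exact matches within the window were counted, so a gene without one may still hold an inexact or more distant copy.

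Whole windows are given for 4 genes: HSPA5 and HYOU1, HSP90B1, which held 2 ERSE matches, and DNAJB9, which stood highest and held no match to any of the 4 motifs. Capitals mark ERSE, ERSE-II and UPRE matches.
HSPA5, chr9:125241294-125241593, minus strand: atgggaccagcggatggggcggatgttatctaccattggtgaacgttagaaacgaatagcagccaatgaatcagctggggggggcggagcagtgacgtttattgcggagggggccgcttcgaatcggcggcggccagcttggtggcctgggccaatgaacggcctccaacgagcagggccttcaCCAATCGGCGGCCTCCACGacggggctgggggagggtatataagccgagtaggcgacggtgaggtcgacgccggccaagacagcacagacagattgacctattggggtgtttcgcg
HSP90B1, chr12:103930160-103930459, plus strand: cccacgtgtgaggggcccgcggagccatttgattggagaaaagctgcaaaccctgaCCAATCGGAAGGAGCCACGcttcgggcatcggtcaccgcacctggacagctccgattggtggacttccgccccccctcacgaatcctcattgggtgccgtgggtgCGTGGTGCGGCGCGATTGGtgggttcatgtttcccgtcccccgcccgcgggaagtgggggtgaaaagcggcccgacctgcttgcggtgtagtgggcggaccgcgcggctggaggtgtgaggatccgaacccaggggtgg
HYOU1, chr11:119057156-119057455, minus strand: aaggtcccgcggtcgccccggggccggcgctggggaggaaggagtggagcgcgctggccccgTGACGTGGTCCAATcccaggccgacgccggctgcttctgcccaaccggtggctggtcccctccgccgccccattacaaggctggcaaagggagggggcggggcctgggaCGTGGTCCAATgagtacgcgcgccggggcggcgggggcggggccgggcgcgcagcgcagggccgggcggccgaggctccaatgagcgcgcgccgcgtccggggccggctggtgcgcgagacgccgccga
DNAJB9, chr7:108569624-108569923, plus strand: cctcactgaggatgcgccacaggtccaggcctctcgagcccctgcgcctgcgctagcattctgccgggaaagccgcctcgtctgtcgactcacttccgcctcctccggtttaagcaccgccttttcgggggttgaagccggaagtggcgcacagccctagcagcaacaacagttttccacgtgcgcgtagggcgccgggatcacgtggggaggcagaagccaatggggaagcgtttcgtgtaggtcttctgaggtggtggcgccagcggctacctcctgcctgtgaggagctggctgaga

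**Figure D1:**
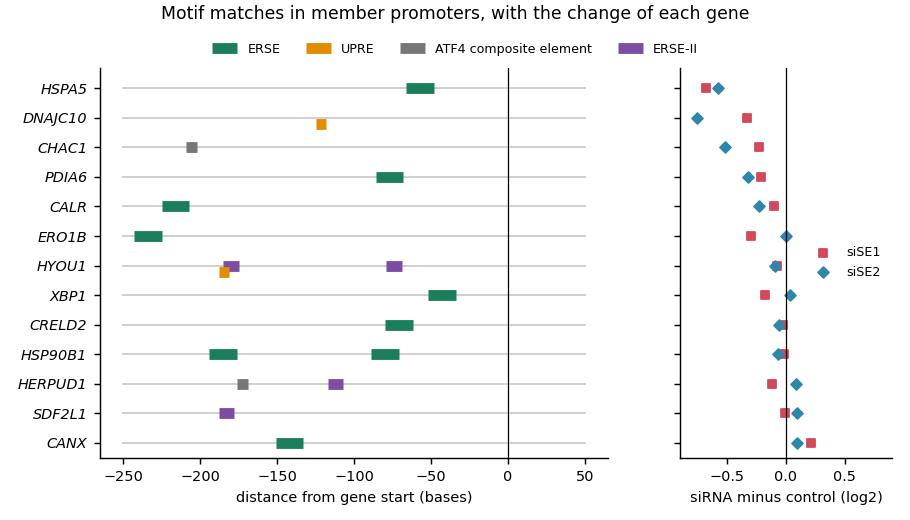
Left, motif matches in the promoter windows of the 13 members that hold any, by distance from the gene start in bases; right, the difference of each siRNA array from the control array (log2). Genes are ordered by their mean difference. HSPA5 and CANX, each with 1 exact ERSE match, lie at opposite ends. Differences between genes were not tested.

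The medians of members with and without an exact match to ERSE or ERSE-II lay close together, and their difference was not tested. The 10 tested members with ERSE or ERSE-II had a median difference of -0.057 (log2, mean of the siRNA arrays minus control), with 2 above and 8 below the control. The 23 tested members without either had a median of -0.044, with 8 above and 15 below. Over all genes tested the median was -0.019. HSPA5 and HSP90B1, which both hold an ERSE match, differed from the control by -0.63 ± 0.14 and -0.039 ± 0.14 (SE, n = 2 arrays against 1). The difference between these genes was not tested.

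Among the chaperones and their partners, HSPA5 read 11.22 in control cells, 10.54 under siSE1 and 10.65 under siSE2 (log2). Both siRNA arrays were lower than the control, with differences of -0.68 and -0.58, and they lay 0.11 apart. The mean difference of -0.63 ± 0.14 had an unadjusted 95% interval from -0.95 to -0.31 but did not pass over all genes (limma, adjusted p = 0.0727). It passed with an intensity trend in the variance prior (limma, adjusted p = 0.0473), and its adjusted p ran from 0.0473 to 0.166 over the alternatives. In the ranking of all 12892 genes by mean difference, 260 lay at or below HSPA5 (2.02%).

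DNAJB9, an ER-stress-induced J protein that brings BiP to its clients and to IRE1, read 7.08 in control cells, 7.47 under siSE1 and 8.10 under siSE2. Both siRNA arrays were higher, 1.31-fold with siSE1 and 2.02-fold with siSE2, and at 0.63 on the log2 scale they lay farther apart than for any other member. At 0.70 ± 0.23 its mean difference missed the threshold (adjusted p = 0.155 by limma), and the interval ran from 0.20 to 1.21. Only 63 of all genes tested (0.489%) lay at or above it. DNAJB9 was also the 1 member that differed at least 1.5-fold between the siRNA arrays, which 1.16% of all genes did.

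DNAJC10, a J protein with disulfide reductase activity (ERdj5), read 8.07 in control cells, 7.74 under siSE1 and 7.32 under siSE2. It was lower on both, 1.26-fold and 1.69-fold, with a mean difference of -0.55 ± 0.18 (limma, adjusted p = 0.173). MANF, a secreted stress-induced factor that binds BiP, read 8.99, 8.91 and 8.62 in the same order. Its mean difference was -0.22 ± 0.16 (limma, adjusted p = 0.511), most of it on the siSE2 array. DNAJB11, a BiP co-chaperone (ERdj3), read 8.28, 7.98 and 8.19, with siSE1 the lowest. DNAJC3, a co-chaperone that also inhibits PERK, read 6.14, 6.33 and 6.26, both siRNA arrays slightly higher.

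The remaining chaperones read close to the control. HSP90B1, the ER HSP90 (GRP94), read 11.07, 11.06 and 11.01, and HYOU1, the nucleotide exchange factor of BiP, read 8.51, 8.44 and 8.41. CRELD2 and SDF2L1, small ER stress-induced partners of the folding machinery, differed by -0.041 ± 0.14 and 0.042 ± 0.14. Their intervals, like those of HSP90B1 (-0.36 to 0.28) and HYOU1 (-0.40 to 0.23), leave room for modest changes either way. The 10 genes of this role had a median of -0.062, with 3 above and 7 below the control.

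**Figure D2:**
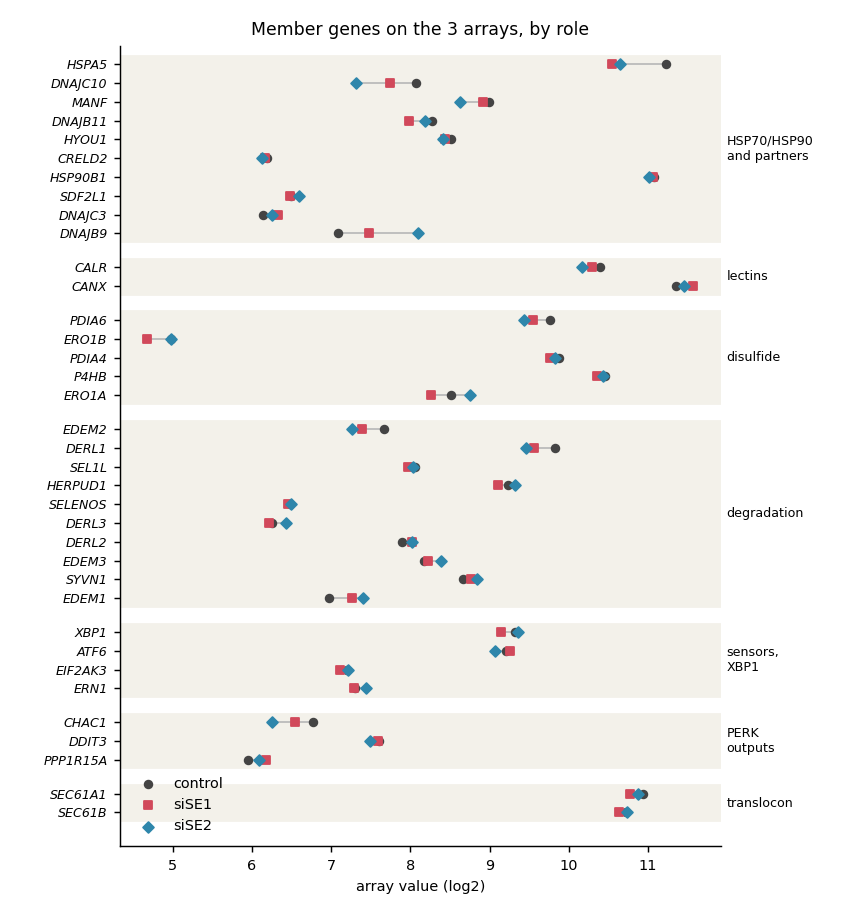
Array values (log2, horizontal axis) of the 36 measured genes, grouped by role, with 1 point per array for control, siSE1 and siSE2. For most genes the 3 points lie close together. The most spread are DNAJB9, at 7.08, 7.47 and 8.10 in that order, DNAJC10, at 8.07, 7.74 and 7.32, and HSPA5, at 11.22, 10.54 and 10.65.

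The lectin chaperones lay on opposite sides of the control. CALR (calreticulin), the soluble one, read 10.39 in control cells, 10.29 under siSE1 and 10.16 under siSE2, below the control on both. CANX (calnexin), its membrane-bound counterpart, read 11.36, 11.57 and 11.45, above it on both. At -0.17 ± 0.15 and 0.15 ± 0.14, both missed the threshold and their intervals include 0 (adjusted p = 0.582 and 0.612 by limma).

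In disulfide formation, PDIA6, a protein disulfide isomerase that also dampens IRE1, read 9.76, 9.55 and 9.43, lower on both siRNA arrays with a mean difference of -0.27 ± 0.14 (limma, adjusted p = 0.366). PDIA4 and P4HB, isomerases of the same family, differed by -0.085 ± 0.14 and -0.066 ± 0.14. The P4HB value is the mean of 2 probe sets, whose differences with siSE1 were -0.066 and -0.15. ERO1A, the oxidase that recharges the isomerases, read 8.51 in control cells, 8.26 under siSE1 and 8.75 under siSE2, one siRNA below and the other above. ERO1B, its dimmer relative, read 4.98, 4.68 and 4.98 and was not tested. PDIA3, the isomerase that works with the lectin chaperones, has 2 probe sets that also name PDIA3P1. Their mean read 9.86, 9.39 and 9.44, and in a fit that admits such probe sets the difference was -0.45 ± 0.13 (limma, adjusted p = 0.171). Signal of the gene and its pseudogene cannot be told apart there.

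Genes of ER-associated degradation were split evenly, 5 above and 5 below the control, with a median of 0.034. EDEM1, a lectin that hands misfolded glycoproteins to degradation and an XBP1 target, read 6.97, 7.27 and 7.40, higher on both siRNA arrays. Its difference of 0.36 ± 0.15 had an interval from 0.035 to 0.69 and did not pass (limma, adjusted p = 0.237). Its relative EDEM2 went the other way, reading 7.66, 7.39 and 7.26, a difference of -0.33 ± 0.15 (limma, adjusted p = 0.271), while EDEM3 differed by 0.14 ± 0.15. DERL1, a channel-forming membrane protein, read 9.83, 9.56 and 9.46, lower on both arrays with a mean difference of -0.32 ± 0.14 (limma, adjusted p = 0.284). DERL2 and DERL3, of the same family, differed by 0.12 ± 0.14 and 0.073 ± 0.15.

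Genes of the core ubiquitin ligase read close to the control. SYVN1 (HRD1), the ligase itself, read 8.66, 8.76 and 8.84, and SEL1L, its stabilising partner, read 8.05, 7.97 and 8.04. HERPUD1, a stress-induced adaptor of this complex, read 9.23, 9.11 and 9.31. SELENOS, a selenoprotein that recruits the extracting ATPase, read 6.47, 6.45 and 6.49. In HERPUD1 and SELENOS the siRNA arrays lay on either side of the control.

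The sensors and XBP1 lay close to the control, and the greatest departure of an array was that of XBP1 with siSE1 (-0.18). ERN1 read 7.30 in control cells, 7.28 under siSE1 and 7.44 under siSE2, and EIF2AK3 read 7.20, 7.11 and 7.21. ATF6 read 9.21, 9.26 and 9.07, and XBP1 read 9.32, 9.14 and 9.36. No siRNA array stood apart in the same direction for these 4 genes. Their mean differences ran from -0.074 ± 0.15 (XBP1) to 0.065 ± 0.15 (ERN1). The activity of the sensors and the splicing of XBP1 were not measured by these gene-level values.

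Of 3 outputs of the PERK branch none passed, their intervals overlap, and differences among them were not tested. DDIT3, the transcription factor CHOP, read 7.60, 7.59 and 7.48, close to the control on both siRNA arrays. CHAC1, a glutathione-degrading enzyme induced through ATF4, read 6.78, 6.55 and 6.25, lower on both, with a difference of -0.38 ± 0.16 (limma, adjusted p = 0.273). PPP1R15A (GADD34), the phosphatase subunit that restores translation, read 5.95, 6.18 and 6.08, higher on both, with a difference of 0.18 ± 0.14 (limma, adjusted p = 0.538). The translocon subunits SEC61A1 and SEC61B, which form the channel into the ER, differed by -0.11 ± 0.14 and -0.044 ± 0.14.

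**Figure D3:**
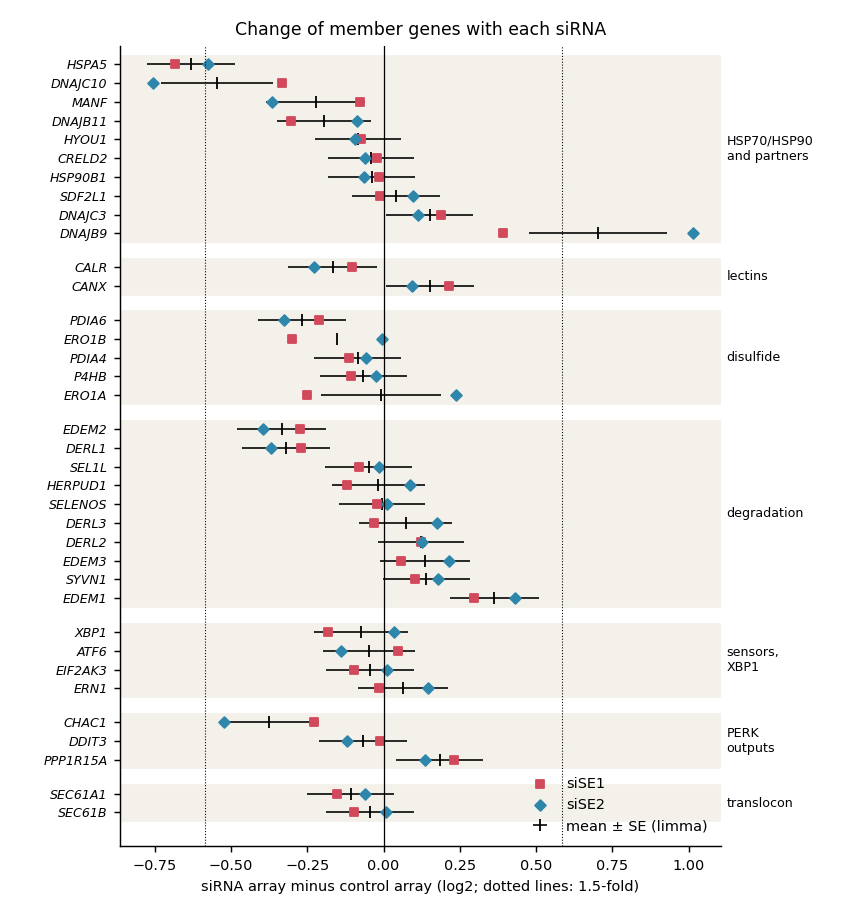
Difference of each siRNA array from the control array (log2, horizontal axis) for the 36 measured genes by role, with the mean and its moderated SE as black bars (no SE for ERO1B, which was not tested); dotted lines mark 1.5-fold. DNAJB9 with siSE2 lies past the upper line, HSPA5 with siSE1 and DNAJC10 with siSE2 past the lower one.

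Each siRNA was also set against the control by size alone, with no test, since each is 1 array. Both comparisons share the control array. With siSE1, 0 members were at least 1.5-fold higher (1.45% of all genes) and 1 was lower, HSPA5 (4.27% of all genes, 2.86% of the members). With siSE2, 1 was higher, DNAJB9 (1.2% of all genes), and 1 lower, DNAJC10 (2.82%). At a lower level, a ratio of 5 to 4 between the arrays, siSE1 had DNAJB9 higher (9.66% of all genes) and 2 members lower, HSPA5 and DNAJC10 (15.5%). At the same level siSE2 had 2 higher, DNAJB9 and EDEM1 (7.62%), and 7 lower, HSPA5, DNAJC10, CHAC1, EDEM2, DERL1, PDIA6 and MANF (12.4% of all genes). The siSE1 shares of members lay below the background at both levels in both directions. For siSE2 the member shares at 1.5-fold were 2.86% in each direction, above the background for higher genes and close to it for lower ones. At the lower level they were 5.71% for higher genes, below the background, and 20.0% for lower genes, above it. The members' median absolute difference was 0.11, against 0.16 over all genes, and 26 of 35 (74.3%) lay within 0.2 of the control, against 59.0% of all genes.

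**Figure D4:**
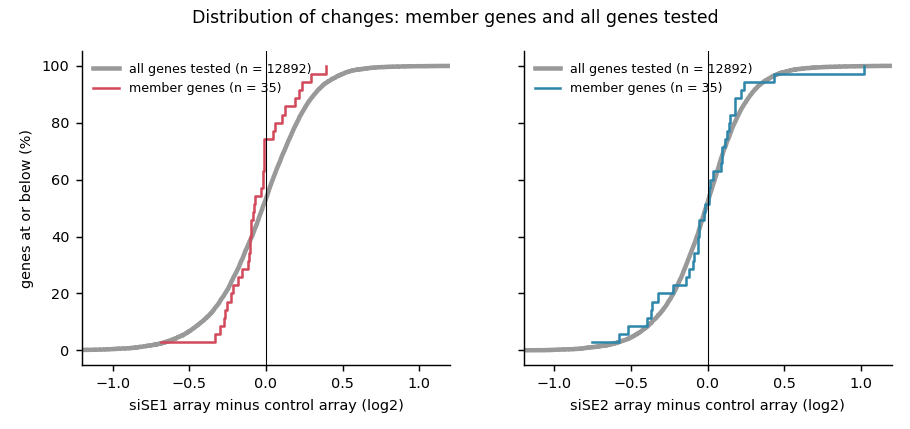
Cumulative share of genes (percent) by their difference from the control array (log2), for the 35 tested members and all 12892 genes tested, with siSE1 (left) and siSE2 (right). With siSE1 the member curve is steeper than that of all genes, and with siSE2 the curves run close together apart from DNAJB9 at 1.02.

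Related genes were taken from lists chosen with earlier results of these data known, and are described by counts and medians beside the median of -0.019 over all genes tested, of which 6053 lay above and 6839 below the control. At an unadjusted p under 0.05, 6.46% of all genes were higher and 11.3% lower, and the lists' counts at that p are to be read against these shares. Of 22 genes of translocation into the ER, 0 passed the limma test, 17 lay below the control and the median was -0.16, and 3 were lower at an unadjusted p under 0.05, against 11.3% of all genes. SSR1, a subunit of the translocon-associated complex, read 9.88, 9.36 and 9.07, a difference of -0.67 ± 0.16 (limma, adjusted p = 0.0869). SEC62, a translocation channel partner, and SPCS2, a signal peptidase subunit, differed by -0.49 ± 0.14 and -0.42 ± 0.14. The 21 tested glycosylation genes had 17 below the control and a median of -0.21. There was 1 call, lower, against 0.714% of all genes tested called lower. At an unadjusted p under 0.05, 1 was higher and 2 were lower, against 6.46% and 11.3% of all genes. OSTC, a subunit of the oligosaccharyltransferase, fell 1.77-fold, from 9.90 to 8.99 with siSE1 and 9.15 with siSE2 (limma, adjusted p = 0.0398). That call ended with no filter on dim genes, with a stricter one (50th percentile) and with probe sets naming several genes (adjusted p from 0.0513 to 0.129). MAN1A1, a mannosidase, differed by 0.67 ± 0.16 in the other direction (limma, adjusted p = 0.0788). It read 5.35, 6.14 and 5.89, so its control value lay near the filter level of 5.12.

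The 23 other folding factors had 18 below the control and a median of -0.11. None passed by limma, and 8 were lower and 0 higher at an unadjusted p under 0.05, against 11.3% and 6.46% of all genes. TMX3, ERP29, FKBP10 and FKBP9, thioredoxin-like proteins and prolyl isomerases of the ER, differed by -0.52 ± 0.15, -0.43 ± 0.14, -0.42 ± 0.14 and -0.39 ± 0.14. Other degradation genes (21 tested) had a median of -0.038 with 0 calls by limma and 1 lower at an unadjusted p under 0.05, ERLIN1, which read 8.24, 7.14 and 7.78. Other sensors and regulators (18 tested) had a median of -0.033 with 0 calls by limma, and 2 were higher at an unadjusted p under 0.05. CREB3L1, an ER-bound transcription factor, read 5.19, 6.07 and 5.67 (0.68 ± 0.18, adjusted p = 0.102 by limma). Its control value lay near the filter level of 5.12. WFS1, an ER membrane protein, differed by 0.37 ± 0.14.

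The ATF4 targets went both ways, with 5 higher and 5 lower of 20 at an unadjusted p under 0.05, against 6.46% and 11.3% of all genes, and a median of -0.054. SLC7A5, a large neutral amino acid transporter, alone passed (0.714% of all genes tested were called lower). It fell 1.84-fold, from 9.08 to 8.22 with siSE1 and 8.19 with siSE2 (limma, adjusted p = 0.0326). The call ended with no filter (adjusted p = 0.107) and with probe sets naming several genes (adjusted p = 0.0713). Its partner SLC3A2 and the mitochondrial folate enzyme MTHFD2 differed by -0.46 ± 0.14 and -0.57 ± 0.14, and DDIT4, a stress-induced inhibitor of mTORC1, by 0.66 ± 0.20.

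Chaperones of other compartments gave a point of comparison. The 25 tested cytosolic chaperones had a median of 0.028, with 0 calls by limma and 1 higher at an unadjusted p under 0.05, PTGES3 (p23), an HSP90 co-chaperone that read 9.24, 10.16 and 9.71. The 16 mitochondrial chaperones and proteases had a median of -0.045, with 0 calls by limma and 1 lower at an unadjusted p under 0.05, AFG3L2, which read 8.22, 7.76 and 7.57. Differences between these lists and the ER genes were not tested.

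**Figure D5:**
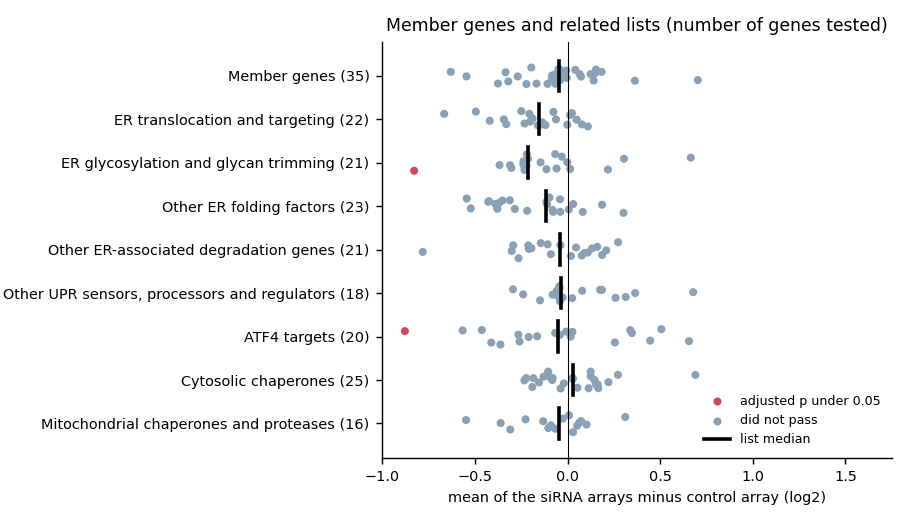
Mean difference of the siRNA arrays from the control array (log2, horizontal axis) for each tested gene of the members and of 8 related lists, with the number of genes tested in brackets and the list median as a black bar. Red points passed the test over all genes: OSTC, 1.77-fold lower, and SLC7A5, 1.84-fold lower; the list medians run from -0.21 to 0.028.

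The medians over all probe sets were 5.80 for the control, 5.84 for siSE1 and 5.84 for siSE2. Over the genes tested the order was the reverse, with medians of 7.21, 7.12 and 7.15, and these gaps are wider than the members' median difference of -0.044. The luminal prostate genes KLK3, KLK2, KRT8, KRT18, HOXB13 and ACP3 read from 6.39 to 10.24 on the control array, and 4 more listed luminal markers are not analysed here. Of the blood and stromal markers, PTPRC, DCN, LUM, CD3E and CD14 read from 2.41 to 5.03 there, below the filter level of 5.12. The filter acts on the mean over the 3 arrays, and CD14, at 5.22 under siSE1 and 5.38 under siSE2, passed it. The others read above it: CD68 at 7.30, COL1A1 at 6.94, VIM at 6.89, COL1A2 at 5.52 and COL3A1 at 5.43. The summed level of the 4 measured blood markers was 7.77 for the control, 7.96 for siSE1 and 8.09 for siSE2 (log2), that of the 6 stromal markers 8.42, 8.39 and 8.41, and that of the 3 basal markers 6.89, 7.09 and 7.19. Of the basal markers, KRT5 and KRT15 fell below the filter on dim genes, and only KRT14 was tested. The summed luminal markers read 12.23, 12.37 and 12.32, and at an unadjusted p under 0.05 by limma 3 of the 6 were higher (KRT8, KRT18 and ACP3) and 1 lower (KLK3). The part of these markers in the ER values was not tested. SLC45A3 and ELK4, the parent genes of the targeted chimera, differed by -0.46 ± 0.15 and -0.18 ± 0.16 without passing. Both were lower on both siRNA arrays (limma, unadjusted p = 0.0114 and 0.277). Their probe sets do not resolve the chimeric junction.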

How the data were processed

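Total RNA was profiled on 3 Affymetrix arrays (1 control siRNA, 2 chimera siRNA). The authors deposited 33297 probe set values per array on what was taken, from their range, to be the log2 scale; Affymetrix Expression Console is named per the submitters' processing notes, and background correction, normalization and genome build have no description in the labels or the file. The platform annotation named 1 gene for 19460 probe sets, several for 1754 and none for 12083; 19429 of the former matched RefSeq (GRCh38.p14, used for names and promoters only) by gene ID.

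Probe sets naming 1 gene were averaged per gene, genes below the 30th percentile of the mean were left out (5525), and limma 3.58.1 set the pair of siRNA arrays against the control in R 4.3.3 (lmFit, eBayes; Benjamini-Hochberg over 12892 genes, threshold 0.05). The lone control is assumed to vary as the siRNA arrays do. SE is the moderated standard error. The number of arrays limits precision. Simulated data were used to test the script. Promoter windows came from RefSeq; a gene with several starts counted once, and a match was counted if any window held it.

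Members and lists were chosen with earlier results of these data known. All members are accounted for. From each related list up to 4 genes were eligible to be named, ranked by the smaller of their 2 changes where both siRNAs gave the same direction. The planned search of protein ends was not run. Alternatives covered 3 normalizations, 2 filters, the highest probe set, probe sets naming several genes, 2 variance priors, a 1.25-fold level and leaving out each siRNA array.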

Additional observations from a re-analysis of the deposited data

Results flagged for a closer look

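ERO1A drew attention because the siRNA arrays lay on opposite sides of the control: the difference was -0.25 with siSE1 and 0.24 with siSE2 (log2). With 1 array each, the difference between the siRNAs was not tested.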

How the results depend on the processing

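The count of members called was 0 under 8 of the 9 alternative fits and 1 (HSPA5) with an intensity trend in the prior. Over all genes the same fits called 124 genes as reported, 189 with quantile normalization, 35 with a stricter filter (50th percentile), and 1 both with no filter and with probe sets naming several genes. Lowering the fold level from 1.5 to a ratio of 5 to 4 raised the count of members past it from 1 to 3 with siSE1 and from 2 to 9 with siSE2. At 1.5-fold the siSE2 count was also 3 with quantile normalization and with equal array medians, while the siSE1 count stayed at 1. HSPA5 stayed below the control under all 9 fits (-0.67 to -0.62), DNAJB9 above it (0.66 to 0.75), DNAJC10 below it (-0.58 to -0.50) and EDEM1 above it (0.32 to 0.41). The near-zero mean of ERO1A turned to 0.043 with quantile normalization and 0.037 with cyclic loess, and that of HERPUD1 to 0.015 and 0.018; the cause was not tested. Leaving out either siRNA array leaves no residual degree of freedom, so it gives each siRNA's own difference with no test: for DNAJB9 0.39 or 1.02, for HSPA5 -0.68 or -0.58. No paired analysis was possible because both siRNA arrays share a single control array and the labels give no pairing. In the fit reported above, the smallest difference called in any gene was 0.74. The fit with an intensity trend called HSPA5 at -0.63.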

Other observations

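Among the 30 tested genes whose promoter window holds ERSE or ERSE-II, 20 are outside the list described above; 14 of them lay below the control and 6 above, with a median of -0.091 (log2), and limma called 0 of them, with 5 at an unadjusted p under 0.05, 2 higher and 3 lower, against 6.46% of all genes higher and 11.3% lower. The following were chosen after their values were seen. SHCBP1, a gene of proliferating cells, read 8.31 in control cells, 7.65 under siSE1 and 7.48 under siSE2 (limma, adjusted p = 0.0539), and ZNF143, a transcription factor, read 7.62, 6.87 and 7.06 (limma, adjusted p = 0.0738). GYS1, the muscle glycogen synthase, read 8.37, 8.83 and 8.74. FICD, the enzyme that AMPylates BiP, differed by 0.13 ± 0.15, and SERP1, a stress-associated protein of the translocon, read 9.57, 9.34 and 9.55.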
